A study of Mus musculus with 6 samples.

Results

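The 10 genes described here encode transcription factors that set the identity of vascular smooth muscle. Myocd, Srf, Mef2a, Mef2c, Mef2d, Gata6 and Tead1 are known as activators of the contractile program or of its upkeep, and Klf4, Klf5 and Tcf21 as factors of phenotype switching. They were chosen by name, and all 10 were found among the 22956 genes of the deposited count table. All 10 also passed the filter on low counts, which kept 16654 genes.

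Messenger RNA was sequenced from aortas of C57B6 mice, in samples that the labels call smooth muscle cells. The mice were 30 weeks old and had eaten a western diet for 20 weeks. The WT group (n = 3) has the labelled genotype WT/mTmG/ Myh11ERT2, and the knockout group (KO in the plots, n = 3) has miR-21fl/flmTmG/Myh11ERT2. Both groups therefore carried the mTmG reporter, which changes colour where Cre recombinase has acted, and the Myh11ERT2 driver, an inducible Cre under the promoter of smooth muscle myosin. In the knockout group the floxed miR-21 gene can be deleted only in cells that use that promoter, so other cells of the vessel keep miR-21. The labels do not state the inducing treatment, whether the replicates are separate animals, or a cell sort, and p-values therefore measure the spread between these libraries, which may be technical. The comparison asks which of these regulators differ in smooth muscle that can lose miR-21, under the same diet. No row for miR-21 was analysed here, so these counts do not check the deletion.

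Smooth muscle genes that build the contractile apparatus carry CArG boxes, short DNA elements bound by serum response factor (SRF). Myocardin, the product of Myocd, does not bind these boxes itself but sits on SRF and drives transcription, and MEF2 factors, GATA6 and TEAD1 act beside it. KLF4 can displace this activity, and in diseased arteries smooth muscle cells that turn down contractile genes take up matrix, inflammatory or other fates. miR-21 is a short RNA that lowers messages whose 3′ untranslated region (UTR) pairs with its seed.

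The targeted RNA and the places in these 10 messages that could pair with it are shown first, because they tell which of the messages hold its seed match. Mature miR-21a-5p lies on the minus strand at chr11:86584120-86584141 (RefSeq, GRCm38.p6). Its seed, bases 2 to 8, is in capitals and pairs with ATAAGCT. In the principal transcript of each member (GENCODE M21, GRCm38, the assembly of mm10), 0 of 10 3′ UTRs held that site, against 7.29% of 13086 tested genes searched the same way. Principal transcripts can be short at the 3′ end: the UTR of the Mef2d transcript has 12 bases and that of the Mef2c transcript 712. Among all 36 coding transcripts of the members, 8 held the site, all of them transcripts of Mef2c. The share of genes with a site was 8.0% when the longest UTR of each gene was searched. The longer Mef2c UTRs hold the site at 2 positions, chr13:83663821-83663827 and chr13:83666884-83666890 on the plus strand, neither followed by the A of the longer site. A match is a description of the sequence and does not show that miR-21 binds there.
miR-21a-5p: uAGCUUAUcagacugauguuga
Mef2c 3′ UTR, first site: tcaaaaggATAAGCTgtggggtta
Mef2c 3′ UTR, second site: acagcggcATAAGCTggactttgt

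Total estimated counts ranged from 37787465 in knockout 1 to 154384307 in WT 3, and the next highest library, knockout 3, had 72277179. Markers of smooth muscle were abundant, with a summed 22738 to 35769 CPM (counts scaled to the library total) over 6 genes. Markers of adventitial fibroblasts, 10 genes that include the matrix genes Lum and Dcn, summed to 6939, 3263 and 6150 CPM in WT 1, 2 and 3. Knockout 1, 2 and 3 had 5582, 1538 and 2046 CPM of them, so knockout 2 and 3 had the lowest sums. Lum and Dcn made up most of the sum, with 4100 and 2003 CPM in WT 1. Pdgfra, Cd34, Ly6a, Lum and Dcn were lowest in knockout 2. Pi16, Clec3b, Dpt and Col14a1 were instead lowest in WT 2, and Mfap5 in knockout 1. The 9 endothelial markers summed to 99.0 to 117 CPM, of which Pecam1 had 52.2 to 63.6 CPM, Eng 37.8 to 54.9 CPM and Vwf 1.98 to 5.33 CPM, while Cdh5 and Kdr were under 1 CPM in every library. As a mean log2 CPM relative to the mean over the 6 libraries, the 9 endothelial markers were highest in WT 1 (0.99) and knockout 1 (0.74) and lowest in WT 2 (-0.74). The 6 lymphocyte markers summed to under 1 CPM in every library. The 11 macrophage markers summed to 34.1 CPM in WT 1 and 34.7 CPM in knockout 1, against 7.68 to 19.3 CPM in the other libraries. The 4 cardiac markers in the table summed to 11.5 to 35.2 CPM, mostly Tnnt2, with the highest sum in knockout 2. Tnnt2 had 18.8, 23.5 and 14.1 CPM in WT 1, 2 and 3. In knockout 1, 2 and 3 it had 9.02, 28.9 and 8.41 CPM, so knockout 1 and 3 were its lowest libraries. Of the 4 markers, 3 lay above 0 in the knockout and 1 below. Actc1 and Tnni3 (2 of 4) were higher in all knockout than in all WT libraries, as were 6.48% of all genes. Both passed an unadjusted edgeR p under 0.05, as did 3.95% of all genes in that direction. Actc1 had a WT mean of 1.29 ± 0.28 CPM and a knockout mean of 3.45 ± 1.49 CPM (SD, n = 3 each; DESeq2 adjusted p = 0.043, edgeR adjusted p = 0.780). Myh6 and Tnni3 were under 1 CPM in every library. In bulk samples, fewer cells of a type and less RNA per cell cannot be told apart.

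No member passed the threshold over all genes. With edgeR's quasi-likelihood test and Benjamini-Hochberg adjustment, 0 of 10 members and 0 of 16654 genes (0%) had an adjusted p under 0.05. DESeq2 called 75 genes (0.427% of 17578) and 0 of the members. At an unadjusted edgeR p under 0.05, 1 member (Myocd) was higher and 0 were lower in the knockout, where 5.96% of all genes passed, 3.95% higher and 2.01% lower. Of the members, 9 had a log2 fold change above 0 (knockout over WT) and 1 below. Their median was 0.12, against -0.0022 for all genes tested, of which 49.4% lay above 0. For 0 of the 10 did all knockout libraries lie above or below all WT libraries, which was so for 6.48% of all genes above and 5.60% below. Every member's groups overlapped.

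**Figure D1:**
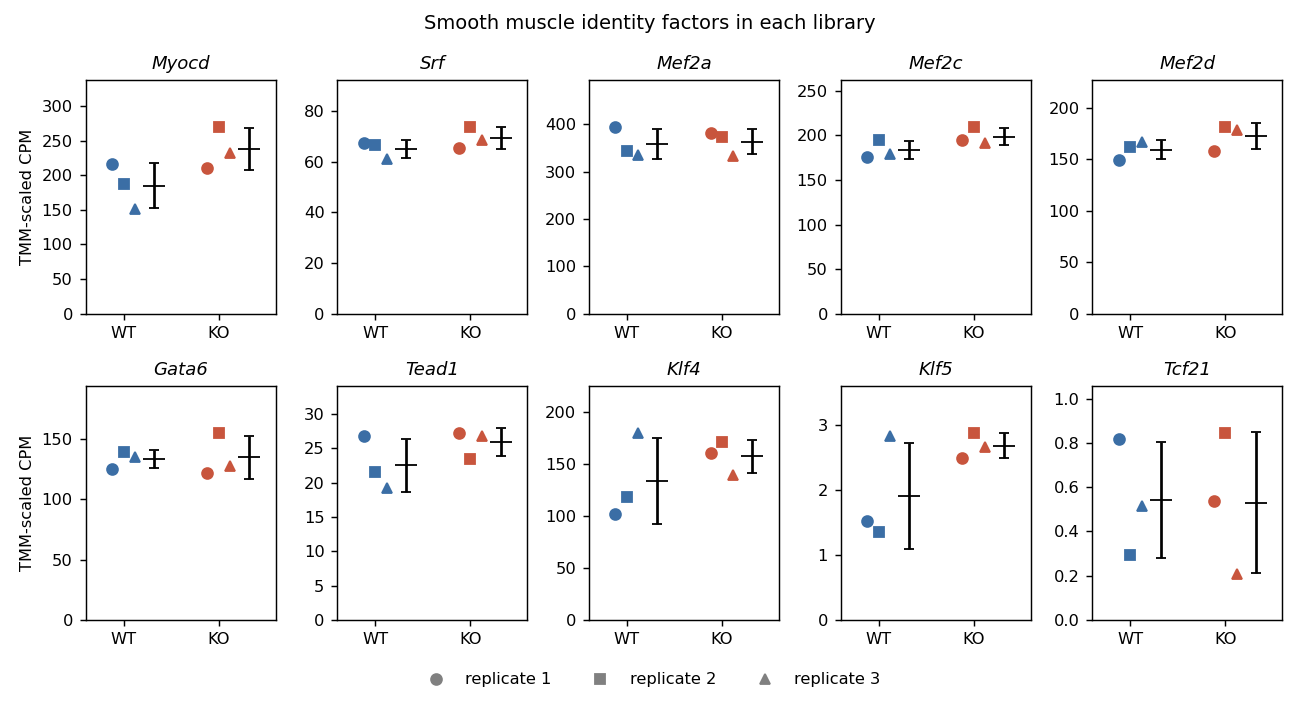
TMM-scaled CPM of the 10 members in each library, with a panel and a linear axis from 0 for each gene; symbols mark the replicate number, and the black bar beside each group is its mean ± SD (n = 3). WT and knockout (KO) libraries overlap in every panel, and Myocd in WT ranges from 152 to 216 CPM against 211 to 270.3 CPM in the knockout.

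Myocd (chromosome 11, 65176561 to 65269989, mm10, minus strand) showed the smallest p of the members. It had 216, 188 and 152 CPM in WT 1, 2 and 3 and 211, 270.3 and 232 CPM in knockout 1, 2 and 3. Knockout 2 and 3 lay above every WT library, while knockout 1 lay just under WT 1, so the groups overlapped by that pair. The WT mean was 185 ± 32.2 CPM and the knockout mean 238 ± 30.2 CPM (SD, n = 3 each). The fit put the log2 fold change of Myocd at 0.36 ± 0.15 (SE), with a 95% interval from 0.01 to 0.72, an unadjusted edgeR p of 0.0469 and an adjusted p of 0.831. It did not pass in DESeq2 either (adjusted p = 0.709). Without WT 3, the lowest library, it was 0.23, and without WT 1 it was 0.49. Over the alternatives its unadjusted p ranged from 0.0137 to 0.148 and its adjusted p from 0.389 to 1.000.

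Contractile genes and Myocd ran in different orders over the WT libraries. WT 1 had the highest Myocd of the WT group and the lowest level of each of the 4 reference genes. In WT 1 the smooth muscle myosin gene Myh11 was at 5427 CPM, and WT 2 and 3 had 8244 and 7013 CPM of it. Its levels in knockout 1, 2 and 3 were 7110, 9458 and 8671 CPM. Over the knockout libraries Myh11, Acta2 and Cnn1 had the same order as Myocd, lowest in knockout 1 and highest in knockout 2, while Tagln was highest in knockout 3. Per 1000 counts of Myh11 there were 39.8, 22.8 and 21.6 counts of Myocd in WT 1, 2 and 3. In knockout 1, 2 and 3 there were 29.6, 28.6 and 26.7. The knockout values of this ratio lay close together and between those of WT 1 and those of WT 2 and 3. Relative to Cnn1, which encodes calponin, WT 1 was likewise highest at 145 counts of Myocd per 1000, while WT 2 and 3 had 80.9 and 79.1 and the knockout libraries 108 to 134.

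Of the 21 contractile genes listed, 20 had fold changes above 0 with a median of 0.16, and 0 passed the adjusted threshold. The 1 below 0 had all knockout libraries below all WT libraries, as did 5.60% of all genes. At an unadjusted p under 0.05, 2 were higher and 0 lower. Over all genes tested, 49.4% lay above 0, and at that p 3.95% were higher and 2.01% lower. The counts of the other lists are to be read beside these shares. Ppp1r12b, a myosin phosphatase subunit, had the smallest p of the 21 contractile genes (log2 fold change 0.39 ± 0.16 SE, edgeR adjusted p = 0.830). Myh11 was at 0.29 ± 0.19, the actin gene Acta2 at 0.18 ± 0.20, Tagln at 0.05 ± 0.15 and Cnn1 at 0.08 ± 0.21 (SE). All 4 reference genes had 95% intervals that included 0. Leaving out 1 library moved Acta2 from 0.027 (without WT 1) to 0.35 (without WT 2) and Myh11 from 0.14 to 0.43 (the same libraries), and turned the sign of Tagln without WT 1 and of Cnn1 without WT 1 or knockout 2. The list's mean log2 CPM, taken relative to its mean over the 6 libraries, was -0.29, 0.15 and -0.09 in WT 1, 2 and 3. For knockout 1, 2 and 3 it was -0.16, 0.23 and 0.15. The fibroblast markers were highest where this list was lowest, in WT 1 (0.75), and lowest where it was highest, in knockout 2 (-0.64), and their part in the values of these genes was not tested.

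**Figure D2:**
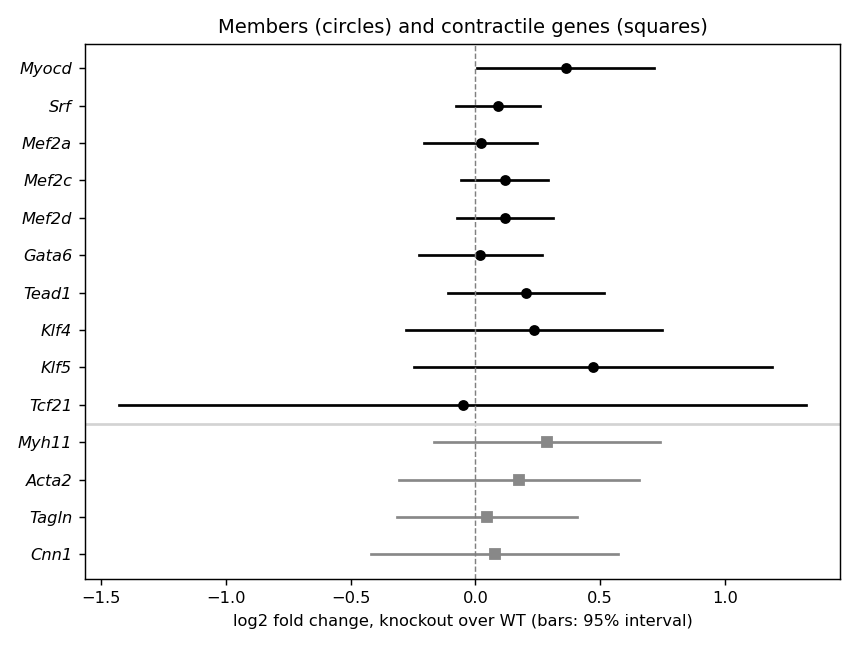
Log2 fold change, knockout over WT, of the 10 members (circles) and of 4 contractile genes (squares), with bars for the 95% interval of the edgeR fit (n = 3 each). Of the 14 intervals, that of Myocd alone lies above 0, from 0.01 to 0.72, and that of Tcf21 is the widest, from -1.43 to 1.32.

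Srf, the DNA-binding partner of myocardin (chromosome 17, 46546839 to 46556163 as the count table gives it, minus strand), was among the steadiest members. It had 67.5, 66.4 and 61.0 CPM in WT 1, 2 and 3 and 65.3, 73.9 and 68.5 CPM in knockout 1, 2 and 3, so that its highest library was 1.21 times its lowest. The highest was knockout 2 and the lowest WT 3, the same libraries as for Myocd. As a log2 fold change, the difference was 0.09 ± 0.07 (SE), with a 95% interval from -0.08 to 0.26, which leaves out a change of the size estimated for Myocd. It was 0.042 without knockout 2 and 0.044 without WT 3.

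SRF is known to act on its own gene through CArG boxes, and the stretch that holds them is shown with those of 2 contractile genes that carry one near the start. A CArG box was searched as CC, 6 bases of A or T, and GG, a pattern that reads the same on both strands, in windows from 250 bases before to 50 after each start (RefSeq, GRCm38.p6). Of the 10 members 6 had a window. Srf alone of these held a box, beginning 82 and 62 bases before the start. Over all 32851 windows 1.63% held a box, and of the 17 contractile genes with a window 2 did, Myl9 (myosin regulatory light chain) and Vcl (vinculin). Boxes further from the start are outside these windows, and boxes that deviate from this strict pattern were not counted, so a gene without a hit may still have one. The Srf stretch is chr17:46556183-46556282 on the minus strand, that of Myl9 chr2:156775288-156775327 and that of Vcl chr14:20929156-20929195, both on the plus strand; capitals mark the boxes.
Srf: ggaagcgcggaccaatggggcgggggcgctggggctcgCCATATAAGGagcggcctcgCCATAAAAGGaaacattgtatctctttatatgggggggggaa
Myl9: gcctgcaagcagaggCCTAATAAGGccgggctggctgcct
Vcl: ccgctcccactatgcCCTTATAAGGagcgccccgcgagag

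Of the 13 measured SRF partners, 9 lay above 0 and 4 below, with a median of 0.07, and 0 passed the adjusted threshold. At an unadjusted p under 0.05, 2 were higher and 0 lower, against 3.95% and 2.01% of all genes. Ep300, an acetyltransferase that myocardin recruits, had the smallest p of the list. All its knockout libraries lay above all its WT libraries, as was so for 6.48% of all genes. WT 1, 2 and 3 had 48.5, 49.2 and 48.4 CPM of Ep300, and knockout 1, 2 and 3 had 56.1, 59.6 and 55.4 CPM, a log2 fold change of 0.23 ± 0.05 (SE; edgeR adjusted p = 0.750). The myocardin-related coactivator Mkl1 had a WT mean of 32.5 ± 1.92 CPM and a knockout mean of 33.4 ± 1.51 CPM, and Mkl2 had 17.5 ± 1.34 against 18.8 ± 1.58 CPM (SD, n = 3 each). Their log2 fold changes, 0.04 ± 0.07 and 0.10 ± 0.09 (SE), were within the spread between libraries.

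The MEF2 factors are MADS-box proteins like SRF that are held in check by class II histone deacetylases. Mef2a (chromosome 7, 67231163 to 67372858, minus strand) had 395, 343 and 336 CPM in WT 1, 2 and 3 and 382, 374 and 334 CPM in knockout 1, 2 and 3. Its groups covered nearly the same range, and the log2 fold change of 0.02 ± 0.10 (SE; 95% interval -0.21 to 0.25) changed sign without any 1 of WT 2, WT 3, knockout 1 and knockout 2. Counts of Lysmd4, an overlapping gene on the other strand that shares exonic sequence, ranged from 417 to 1822 per library against 13978 to 51692 for Mef2a. Without a stated strand setting, reads of such overlapping pairs cannot be told apart.

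Mef2c (chromosome 13, 83504034 to 83667080, plus strand), the member whose longer transcripts hold the miR-21 sites shown above, had 176, 195 and 179 CPM in WT 1, 2 and 3. In knockout 1, 2 and 3 it had 195, 210 and 192 CPM. Knockout 2 was the highest library, and WT 2 lay above knockout 1 and 3, so the groups overlapped. The estimated log2 fold change was 0.12 ± 0.07 (SE), with a 95% interval from -0.06 to 0.29 and an edgeR adjusted p of 0.864. Without knockout 2 it was 0.075. Counts per gene do not tell which UTR the cells used.

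Mef2d (chromosome 3, 88142372 to 88172086, plus strand) had 149, 162 and 167 CPM in WT 1, 2 and 3 and 159, 182 and 178 CPM in knockout 1, 2 and 3. Knockout 1 lay among the WT libraries and the other knockout libraries above them. Its log2 fold change was 0.12 ± 0.08 (SE), as for Mef2c, and the 95% interval ran from -0.07 to 0.31. Without WT 1 the value for Mef2d was 0.073. The antisense gene 1700113A16Rik shares exonic sequence with Mef2d and had 20.5 to 105 counts per library. Of the 5 genes listed as MEF2 repressors and family, 3 lay above 0 and 1 was higher at an unadjusted p under 0.05. That gene was Hdac4, a class II deacetylase, with a log2 fold change of 0.16 ± 0.07 (SE, edgeR adjusted p = 0.830). Its WT libraries (37.0 to 41.3 CPM) all lay below the knockout libraries (42.2 to 45.8 CPM), as was so for 6.48% of all genes.

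Tead1, which binds MCAT elements with the Hippo effectors YAP and TAZ, lies on chromosome 7 (112679318 to 112906807, plus strand). It had 26.8, 21.6 and 19.2 CPM in WT 1, 2 and 3 and 27.3, 23.5 and 26.8 CPM in knockout 1, 2 and 3. WT 1 stood with the knockout libraries, and WT 2 and 3 were the lowest of the 6. As a log2 fold change, the difference was 0.20 ± 0.13 (SE; 95% interval -0.11 to 0.52; edgeR adjusted p = 0.864), and it was 0.09 without WT 3. Without WT 1 it was 0.35 (edgeR unadjusted p = 0.0136, adjusted p = 0.793). Yap1 had a WT mean of 75.7 ± 13.4 CPM and a knockout mean of 81.1 ± 3.45 CPM, and Wwtr1, which encodes TAZ, had 288 ± 22.6 against 269.9 ± 6.31 CPM (SD, n = 3 each). The paralogue Tead3 had a log2 fold change of 0.26 ± 0.14 (SE).

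Of 14 tested TEAD cofactors and Hippo genes, 9 lay above 0 with a median of 0.07, and 1 was higher at an unadjusted p under 0.05. That was Amotl1, an angiomotin that binds YAP, with a WT range of 53.5 to 55.9 CPM and a knockout range of 58.8 to 63.0 CPM (log2 fold change 0.15 ± 0.06 SE). Of 5 TEAD target genes, 4 lay above 0, and Amotl2 had 130.4, 86.7 and 109.5 CPM in WT 1, 2 and 3 and 146, 143 and 134 CPM in knockout 1, 2 and 3. Amotl2 had a log2 fold change of 0.37 ± 0.14 (SE; edgeR adjusted p = 0.830), and its groups did not overlap. The MCAT letters CATTCC, searched on both strands, were in the windows of 1 of the 6 members (Mef2c) and of 9 of 17 contractile genes. As a share of windows these were 12.5% and 47.4%, against 14.7% of all windows.

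Klf4, a zinc-finger factor that opposes myocardin and marks switching cells (chromosome 4, 55527143 to 55532466, minus strand), differed as much within WT as between the groups. It had 101.7, 118 and 179.96 CPM in WT 1, 2 and 3 and 160.3, 171 and 139 CPM in knockout 1, 2 and 3. WT 3 was the highest library of the 6 and WT 1 and 2 were the lowest, with the knockout libraries between them. The WT mean was 133 ± 41.3 CPM and the knockout mean 157 ± 16.2 CPM (SD, n = 3 each). The estimated log2 fold change was 0.24 ± 0.21 (SE; 95% interval -0.28 to 0.75; edgeR adjusted p = 0.883). It was 0.51 without WT 3 (edgeR unadjusted p = 0.0058, adjusted p = 0.978), 0.07 without WT 1 and 0.15 without WT 2.

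In WT, the orders of Klf4 and Myocd were opposite: Klf4 was lowest in WT 1 and highest in WT 3, and Myocd the reverse. The knockout libraries did not show that opposition, since knockout 2 was highest in both. Klf4 is also an immediate early gene in many cells, switched on within a short time of stress or handling. The 9 immediate early genes listed, among them Fos, Fosb and Egr1, had mean log2 CPM relative to the 6 libraries of -0.40, -0.21 and 0.21 in WT 1, 2 and 3. Knockout 1, 2 and 3 stood at -0.07, 0.35 and 0.12. Klf4 on the same scale had -0.48, -0.27 and 0.34 for the WT libraries, and 0.17, 0.27 and -0.03 for the knockout. WT 1 was the lowest in both, and WT 3 and knockout 2 were the highest pair in both. All 9 immediate early genes lay above 0 in the comparison, with a median log2 fold change of 0.33, where 49.4% of all genes tested lay above 0. At an unadjusted edgeR p under 0.05, which 5.96% of all genes passed, 0 of these 9 did. Their part in the Klf4 values was not tested.

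Klf5, which is raised in activated and embryonic smooth muscle (chromosome 14, 99298691 to 99315036, plus strand), was near 2 CPM, with 55 to 437 estimated counts per library. It had 1.53, 1.35 and 2.84 CPM in WT 1, 2 and 3 and 2.49, 2.88 and 2.67 CPM in knockout 1, 2 and 3. As for Klf4, WT 1 and 2 were the lowest and WT 3 stood with the knockout libraries. Its log2 fold change was 0.47 ± 0.30 (SE), with a 95% interval from -0.25 to 1.19 and an edgeR adjusted p of 0.864. It was 0.89 without WT 3 (edgeR unadjusted p = 0.0060, adjusted p = 0.978), 0.27 without WT 2 and 0.22 in limma-voom with sample weights. Of 13 other KLF and SP factors, 10 lay above 0 with a median of 0.14. Sp1, a ubiquitous zinc-finger factor, was the 1 of these higher at an unadjusted p under 0.05 (log2 fold change 0.31 ± 0.11 SE; edgeR adjusted p = 0.800).

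**Figure D3:**
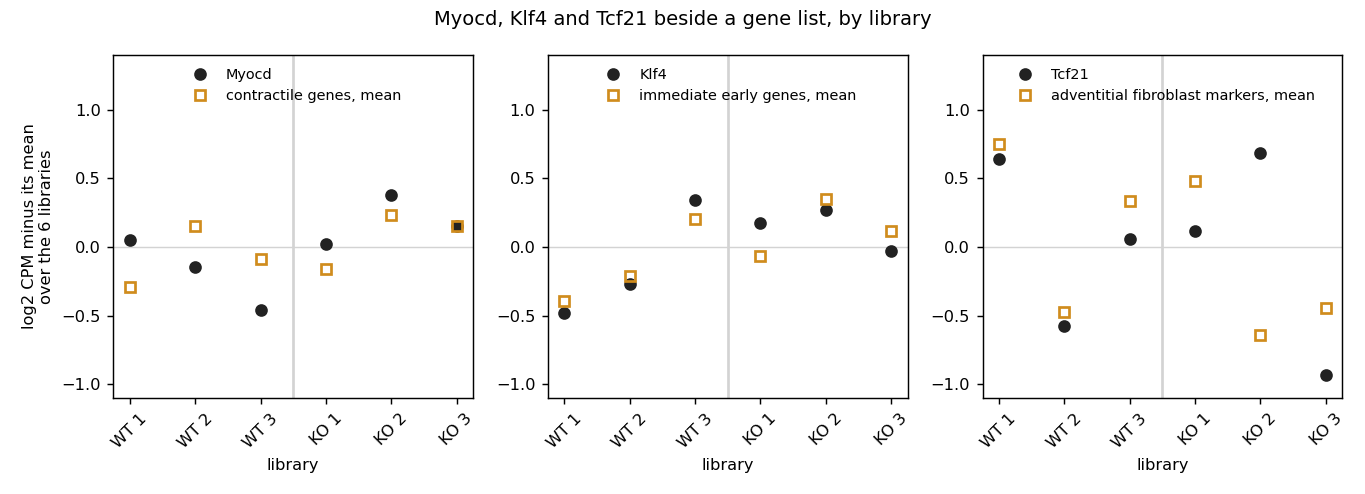
Log2 CPM of Myocd, Klf4 and Tcf21 in each library, minus the gene's mean over the 6 libraries (filled circles), beside the mean of a gene list on the same scale (open squares; KO is knockout). Klf4 and the immediate early genes are both lowest in WT 1, at -0.48 and -0.40, while Tcf21 in KO 2 is at 0.69 where the fibroblast markers are at -0.64.

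Tcf21, a basic helix-loop-helix factor of epicardial and adventitial fibroblast lineages that also appears in modulated smooth muscle (chromosome 10, 22817281 to 22820174, minus strand), was close to the limit of detection. Between 12 and 79 counts per library were assigned to it. WT 1, 2 and 3 had 0.817, 0.295 and 0.513 CPM, and knockout 1, 2 and 3 had 0.536, 0.847 and 0.209 CPM. The highest and the lowest library were both knockouts, and the highest was 4.06 times the lowest. As a log2 fold change, the difference was -0.05 ± 0.58 (SE; 95% interval -1.43 to 1.32), which includes a 2-fold difference in either direction. Thinning all libraries to the smallest total gave -0.033, and leaving out 1 library at a time gave -0.58 to 0.36.

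The level of Tcf21 did not track the fibroblast markers in every library. WT 1 was high in both, but knockout 2 had the highest Tcf21 and the lowest summed fibroblast markers. An antisense gene, Gm10824, overlaps Tcf21 on the other strand without sharing exons, and had 0 to 46 counts per library. Of 9 listed partners of TCF21, the E proteins, Hand, Twist and Id genes, 4 lay above 0 and 5 below. Tcf3, an E protein with which TCF21 pairs, had 38.05, 36.9 and 39.8 CPM in WT 1, 2 and 3 and 35.4, 27.7 and 33.4 CPM in knockout 1, 2 and 3. All knockout libraries lay below all WT libraries for Tcf3, as was so for 5.60% of all genes. Tcf3, the partner with the smallest p, had a log2 fold change of -0.25 ± 0.10 (SE, edgeR unadjusted p = 0.038, adjusted p = 0.830).

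Gata6, the GATA factor of adult vascular smooth muscle, differed between the groups by less than the spread between libraries. It had 125, 139 and 135 CPM in WT 1, 2 and 3 and 122, 155 and 127 CPM in knockout 1, 2 and 3. Knockout 1 was the lowest and knockout 2 the highest of the 6, and the WT libraries lay between them. The estimated log2 fold change was 0.02 ± 0.10 (SE; 95% interval -0.23 to 0.26), and its sign changed without WT 1 or without knockout 2. The antisense transcript 1010001N08Rik shares exonic sequence with Gata6 and had 99 to 363 counts per library, against 4540 to 20796 for Gata6. Of 5 other GATA factors and FOG cofactors tested, 2 lay above 0 and 0 passed at an unadjusted p under 0.05.

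Levels of different genes were set side by side as TMM-scaled CPM per kilobase of annotated exon. On that scale the order from the highest was Klf4 (mean of the 6 libraries 47.6), Myocd (32.9), Mef2d (27.8), Mef2a (24.6), Srf (23.2), Gata6 (20.6), Mef2c (12.2), Tead1 (1.78), Klf5 (0.441) and Tcf21 (0.228). Neighbours from Klf4 to Gata6 overlapped in their ranges over the libraries, as did Klf5 and Tcf21, while Gata6 and Mef2c, Mef2c and Tead1, and Tead1 and Klf5 did not. Klf4 stood at the 93.9th percentile of tested genes with a length, Tead1 at the 36.4th and Tcf21 at the 9.90th. The contractile gene Acta2, at 6093 on this scale, was far above all of the factors.

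The order rests on the length used. Annotated exons of Mef2a and Mef2c add up to 14681 and 15715 bases, and their principal transcripts to 2664 and 2589. Per kilobase of the principal transcript Mef2a came first (135.4), followed by Mef2d (94.1) and Mef2c (73.8), with Klf4 at 47.9 and Myocd at 42.8. Tead1, Klf5 and Tcf21 were the lowest members on either length.

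**Figure D4:**
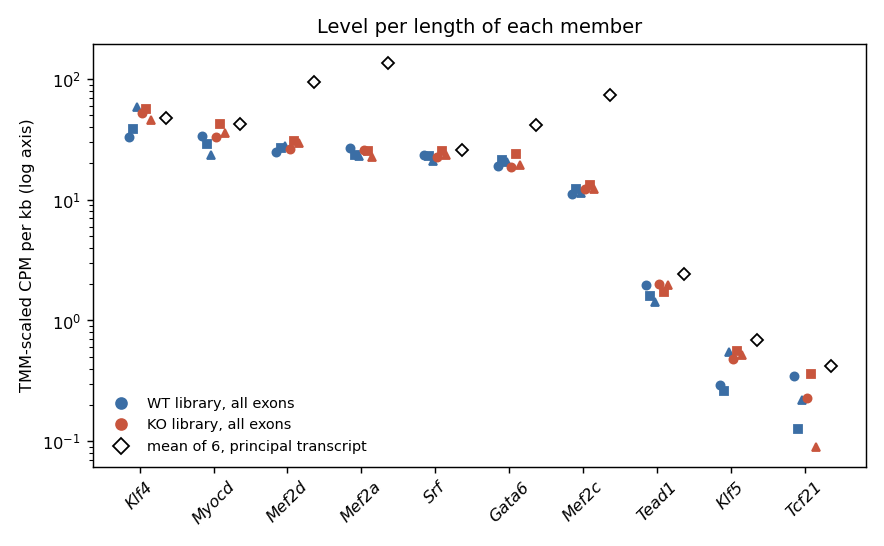
TMM-scaled CPM per kilobase of each member on a log axis, in order of the mean, per kilobase of all annotated exons in each library (filled symbols, KO is knockout) and as the mean over the 6 libraries per kilobase of the principal transcript (open diamonds). Klf4 to Mef2c lie within 11.2 to 59.0 on the exon scale, and Tead1, Klf5 and Tcf21 lie at or below 2.01.

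The members differed in how far they varied between libraries. The ratio of the highest to the lowest library was 1.18 for Mef2a, 1.19 for Mef2c, 1.21 for Srf, 1.22 for Mef2d and 1.28 for Gata6. It was 1.42 for Tead1, 1.77 for Klf4, 1.78 for Myocd, 2.14 for Klf5 and 4.06 for Tcf21. Knockout 2 was the highest library for 7 of the 10 members, and without it 7 of the 10 fold changes lay above 0. At an unadjusted edgeR p under 0.05, 0 members passed without knockout 2. The same count of 0 came without WT 2 or knockout 3, with upper-quartile factors and with the 1 CPM filter. The share of all genes highest in knockout 2 was not counted. Contractile, immediate early and other KLF and SP genes also had their highest mean relative log2 CPM in knockout 2 (0.23, 0.35 and 0.18). Other mesenchymal factors and modulated smooth muscle genes were instead lowest there (-0.31 and -0.95). Knockout 2 also had the lowest summed fibroblast markers and the highest summed cardiac markers of the 6 libraries. The part of these markers in the members' values was not tested.

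Likeness of pattern was measured as the root mean square difference of log2 CPM over the 6 libraries, each gene taken relative to its own mean. Among the members, Srf and Mef2c were the most alike (0.06), Klf4 and Klf5 differed by 0.21, Myocd and Srf by 0.18, Myocd and Klf4 by 0.41, and Klf5 and Tcf21 the most (0.70). Flat genes score as alike on this measure. Of tested genes with a mean log2 CPM of at least 2, those most like Myocd were Ppp1r3b (0.05), Arid5b (0.07) and Cpeb4 (0.08). Those most like Klf4 were Tob1 (0.10), Csrnp2 (0.11) and Sesn2 (0.12). For Tcf21 the nearest were Tbx20, Tatdn2 and Nkd2, all more than 0.3 away.

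**Figure D5:**
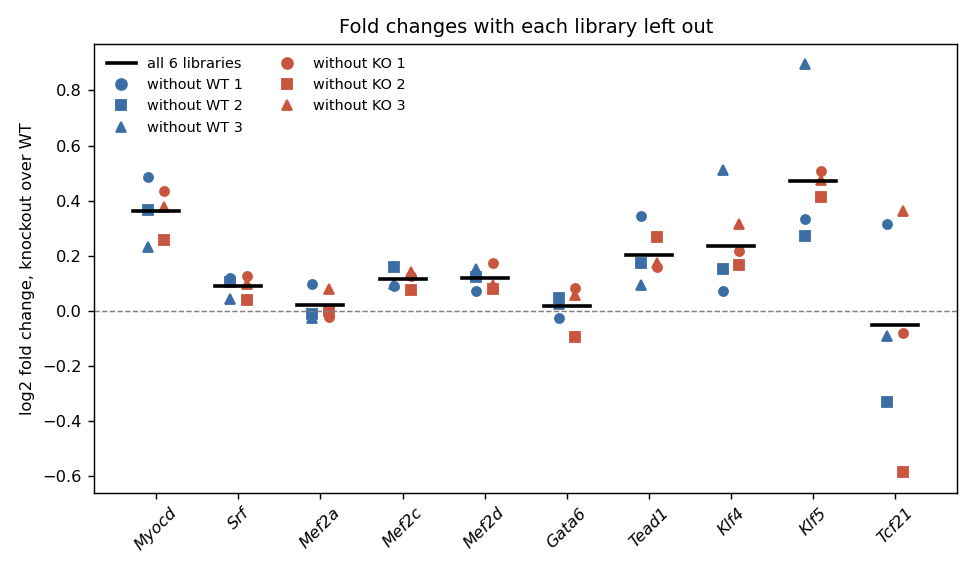
Log2 fold change, knockout (KO) over WT, of each member with all 6 libraries (black bar) and with each library left out in turn (symbols). Klf5 moves from 0.27 to 0.89 and Klf4 from 0.07 to 0.51, with the highest value of each without WT 3, while Tcf21 spans -0.58 to 0.36 across 0.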

How the data were processed

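The values are gene-level estimated counts, deposited in 1 table by the authors without normalization; many are not whole. STAR 2.6, DESeq2 and mm10 are named, with no role, per the submitters' processing notes. How reads were counted, on which annotation and with which strand setting is not given in the sources used here. Columns were matched to samples by the code in their names, and 0 per-sample columns had no sample. The counts were rounded, filtered (filterByExpr), TMM-scaled and tested in edgeR 4.0.16 by its robust quasi-likelihood test (R 4.3.3), two-sided, over all genes at an adjusted p under 0.05. The median SE of a log2 fold change was 0.136. Counts were simulated for knockout against WT (16654 genes), with 67 genes changed 1.5-fold, 67 changed 2-fold and 66 changed 4-fold. Of these, 26.9%, 68.7% and 83.3% were recovered, with 16 false calls. The share of false calls among all calls was above the threshold of 0.05. The simulated counts were drawn independently for each gene and library, without differences between libraries that many genes share. The smallest change put in was 1.5-fold, so recovery of smaller changes was not measured. No pair of replicates was alike within sampling noise (the lowest mean chi-square was 30.2).

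Exon lengths and UTRs came from GENCODE M21 by symbol (16246 tested genes had a length), and miRNA and promoter sequences from RefSeq. The principal transcript was the one with the best APPRIS tag, then the longest. Log2 CPM used an offset of 0.1. Members' CPM were TMM-scaled and marker sums were not. The alternatives tried were upper-quartile factors, DESeq2 size factors, other count filters, DESeq2 1.42.0, limma-voom with sample weights (limma 3.58.1), thinning, a replicate block, an FDR of 0.1 and leaving out each library. Figures used matplotlib 3.10.9.

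The members and lists were chosen with earlier results of these data known. The naming rule covered the members, the gene with the smallest p under 0.05 in each direction of a list, and direct partners and paralogues. It also covered Acta2, Myh11, Tagln and Cnn1, and the 3 genes nearest in pattern to Myocd, Klf4 and Tcf21. Named outside that rule were marker genes of cell types, genes that overlap a member, and Myl9 and Vcl for their CArG boxes. Fos, Fosb, Egr1, Moxd1 and Il33 were also named outside it.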

Additional observations from a re-analysis of the deposited data

How the results depend on the processing

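No member was called under any of the alternatives run, leaving out each library included. Over all genes the count called was 0 in edgeR and 75 in DESeq2 (60 higher, 15 lower), and leaving out 1 library gave 0 to 1; the 1 gene, without knockout 1, was Moxd1, and with the replicate block it was 1 gene, Il33. Both were named after their values were seen. Same-numbered libraries share a replicate number and have neighbouring codes in their column names. Their deviations from the group means had r of 0.32, 0.36 and -0.02 across genes for replicates 1, 2 and 3. Those of replicates 1 and 2 were the highest of all WT and knockout combinations, while knockout 3 was nearer to WT 2 (0.13). The likeness did not hold throughout, so the block was kept as an alternative. With the replicate block Myocd was at 0.37 (adjusted p = 0.389), and unadjusted counts over all genes were 1189 higher and 918 lower, against 658 and 335; upper-quartile scaling gave 538 and 415. Without knockout 1 they were 769 and 956. Fold changes of Myocd, Srf, Klf4, Klf5, Tead1, Mef2c and Mef2d kept their direction in all 14 alternatives. Leaving out 1 library at a time, Tcf21 ranged from -0.58 to 0.36, Mef2a from -0.026 to 0.10, Gata6 from -0.096 to 0.082, Tagln from -0.058 to 0.15 and Cnn1 from -0.075 to 0.24. The filter of at least 1 CPM in 3 samples left Tcf21 out. Thinning to the smallest library left Klf5 at 0.47 and Tcf21 at -0.033.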

Other observations

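Of 18 other transcription factors of mesenchymal cells, 16 lay below 0 in the knockout with a median log2 fold change of -0.14, where 49.4% of all genes tested lay above 0. At an unadjusted edgeR p under 0.05, which 5.96% of all genes passed, or over all genes, 0 of the 18 factors passed. Their mean log2 CPM relative to the 6 libraries was 0.17, -0.04 and 0.13 in WT 1, 2 and 3. For knockout 1, 2 and 3 it was 0.22, -0.31 and -0.17, so that knockout 1 was the highest library and knockout 2 the lowest. Of 14 genes of modulated smooth muscle, 12 lay below 0 with a median of -0.33. S100a4, a calcium-binding protein gene, was the 1 lower at an unadjusted p under 0.05, at 104, 89.0 and 98.9 CPM in WT 1, 2 and 3 and 92.1, 62.5 and 76.3 CPM in knockout 1, 2 and 3 (log2 fold change -0.34 ± 0.14 SE, edgeR adjusted p = 0.833). Lum, Dcn and Ly6a stand in both the modulated list and the fibroblast markers. Both lists were highest in WT 1 and lowest in knockout 2, and the part of the fibroblast markers in these values was not tested.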
